A study of Mus musculus with 4 samples.

Results

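Cushion mesenchyme cells were followed in single-cell libraries of developing mouse hearts. Cells were selected on their own transcripts. The sum of 6 genes of the valve-forming mesenchyme (Sox9, Twist1, Vcan, Tbx20, Prrx2 and Hapln1, here called S) had to reach at least 3 unique molecular identifiers (UMIs, 1 per captured transcript). S also had to exceed the sum of 5 mural and fibroblast genes (Rgs5, Acta2, Col1a1, Sfrp2 and Mfap4, called R). No UMI of 4 endothelial genes was allowed (Pecam1, Cdh5, Egfl7 and Cldn5, called E). The rule was applied to 17678 barcodes of 3 stages, of 21920 in the series, and it selected 912 cells. Of these, 796 were from E12 (embryonic day 12), 116 from E15 and 0 from P2 (postnatal day 2). Levels of the genes of the rule therefore describe the selection and are no result.

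Hearts of C57Bl6J mice were pooled at each stage, 37 animals for E12, 48 for E15, 21 for P2 and 6 for adults of 8 weeks. The labels give no treatment and no altered allele for any stage. Cells were sorted as CD31+/CD45- before 10x Genomics libraries were made. The libraries followed dead cell removal with a kit at E12 and E15 and a second sort of live cells at P2 and in the adult. Each stage had 1 library, so stage, animals, digestion and library cannot be told apart, and no test between cells or stages was made. Both reference groups came from the same libraries. Endocardial comparison cells held at least 1 UMI of Npr3 or Tmem108 and at least 1 UMI of E, which gave 1164 cells at E12, 1762 at E15 and 2105 at P2. Mural and fibroblast-like cells held at least 3 UMIs of R, more R than S and no E, which gave 740 cells at E12, 431 at E15 and 9 at P2.

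The cushions of the embryonic heart are swellings of matrix between endocardium and myocardium. Endocardial cells that line them lose their junctions, move into the matrix and become mesenchyme, under BMP, TGF-beta, Notch and Wnt signals. This mesenchyme builds the valves and the membranous septa. Its transcription factors are shared with other mesenchyme, and SOX9 also drives cartilage, which uses several of the same collagens and proteoglycans. CD31, the antigen of the sort, is the product of Pecam1 and marks endothelium, so mesenchyme is not the cell type that the sort was meant to keep. Of the sorted barcodes, 51.8% at E12 and 29.2% at E15 held no UMI of the 4 endothelial genes, against 0.187% at P2 and 2.38% in the adult.

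The share of cushion mesenchyme was high at E12 and small at E15. It was 13.9% of barcodes at E12 (95% exact binomial interval 13.0015% to 14.8093%) and 1.91% at E15 (1.58% to 2.29%). At P2 it was 0 of 5884 barcodes, which allows a share of up to 0.0510% at 3 counts and has an exact upper bound of 0.0627%, and the 4242 adult barcodes held none either. Among barcodes with no UMI of E the share was 26.8% at E12 and 6.56% at E15. A further 140 barcodes at E12 and 71 at E15 had S of at least 3 and no E but not more S than R. Beside the 796 and 116 selected cells, that condition left out a larger part at E15. Intervals here and below cover counting error only. The E12 library had a median depth of 1241 UMIs per barcode, the E15 library 1013, the P2 library 4531.5 and the adult library 1510. Selected cells were deeper than their libraries, with medians of 1590.5 UMIs at E12 and 1547 at E15. With every barcode thinned to 1000 UMIs, and 1673 and 2966 shallower barcodes left out at E12 and E15, the shares were 13.7% at E12 and 2.16% at E15. Thinned to 500 UMIs, they were 5.06% and 0.597%. With R of 0 they were 4.38% and 0.445%, and with S without Tbx20 and Vcan 6.91% and 0.643%. At 1000 UMIs 3 of 5884 P2 barcodes met the rule (0.0510%, 0.0105% to 0.149%) and 1 of 3246 adult barcodes. Barcodes with no UMI of E then numbered 309 at P2, against 11 at full depth, so the P2 limit depends on depth. Pairs of libraries shared between 25 and 60 barcode sequences, and no sequence occurred among the selected cells of more than 1 library. Doublets were not removed. A Scrublet doublet score over 0.15 was given to 5.15% of the selected cells and 8.76% of the endocardial comparison cells at E12, and to 4.31% and 14.1% at E15.

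**Figure D1:**
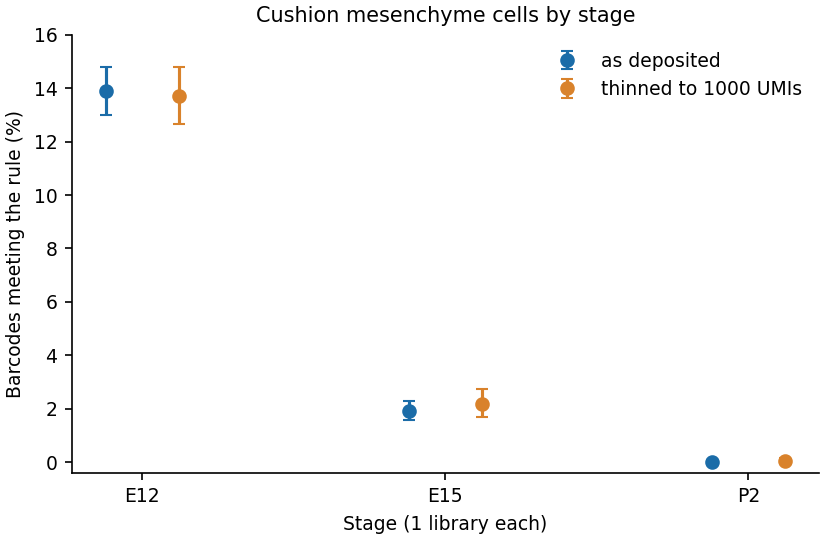
Share of barcodes that met the rule (y axis, percent) in the E12, E15 and P2 libraries (x axis), as deposited and with each barcode thinned to 1000 UMIs. Points are shares and bars are exact 95% binomial intervals, and the E12 share of 13.9% lies far above that of E15 (1.91%) with either depth.

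The genes of the rule were followed over all barcodes used of each library as well, without selection on S, R and E. The E12 barcodes were still those with at least 452 UMIs. Selected cells held 751 of the 1394 Sox9 UMIs of these E12 barcodes, so the library levels are no independent support for the shares. Levels are given as CPM, a gene's UMIs divided by all UMIs of the group of cells, times 1e+06. Sox9, the transcription factor of cushion and cartilage cells, was at 172 CPM over all E12 barcodes, 40.7 CPM over E15, 1.08 over P2 and 3.66 over adult barcodes. Vcan, a large proteoglycan of the cushion matrix, was at 311, 90.3, 42.1 and 6.80 CPM in the same order. Twist1, a transcription factor of mesenchyme, was at 160, 39.0, 1.86 and 0.392 CPM. In E12 barcodes of at most 50 UMIs, mostly empty droplets, Sox9 was at 139 CPM and Vcan at 375 CPM, so free RNA held these genes too, and its part in the library levels was not tested.

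Within the selected cells Vcan was found most often. At E12 a Vcan UMI occurred in 79.1% of them, Tbx20 in 65.3%, Twist1 in 54.1%, Sox9 in 53.6%, Hapln1 in 52.1% and Prrx2 in 34.2%. At E15 the shares were 78.4% for Vcan, 69.8% for Tbx20, 42.2% for Twist1, 50.9% for Sox9, 47.4% for Hapln1 and 21.6% for Prrx2. A background share was read in coronary cells, which should lack these genes (at least 3 UMIs of E, at least 1 of Fabp4 and none of Npr3 or Tmem108, a definition chosen after the data were seen). At E15, 597 such cells with a median of 1343 UMIs held a UMI of Vcan in 2.68% and of Sox9 in 1.34%. At E12 there were 58 such cells with a median of 2177.5 UMIs, and Vcan was found in 6.90%, Sox9 in 0 and Hapln1 in 24.1%. Hapln1, the link protein that binds hyaluronan to proteoglycans, was also found in 23.3% of the E12 endocardial comparison cells. At E12 its presence alone therefore did not set the selected cells apart. At E15 it was found in 4.14% of the endocardial comparison cells and 1.68% of the coronary cells. At least 3 of the 6 genes were found in 604 of 796 selected cells at E12 (75.9%) and in 78 of 116 at E15 (67.2%). The sum S had a median of 5 UMIs at both stages and reached 28 at E12 and 17 at E15.

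Cells just inside and just outside the threshold were compared by gene lists outside the rule. At E12, cells with S of 2 (143 cells) held 7013 CPM of a list of 29 cushion matrix genes, and cells with S of 3 (155 cells) held 8121 CPM. The 137 cells with S of 4 held 9205 CPM and the 504 cells with S of 5 or more 8563 CPM, so the level did not keep increasing with S. Because S had to exceed R, cells with a higher S could hold more R, which includes the matrix genes Col1a1 and Mfap4, so the rule itself bears on this comparison. A list of 17 other endothelial genes was at 1198, 758, 702 and 647 CPM in cells with S of 2, 3, 4 and 5 or more. At E15 the matrix list was at 10632 CPM with S of 2 (32 cells), 11728 CPM with S of 3 (30 cells) and 13563 CPM with S of 5 or more (61 cells). On the endothelial side, 175 E12 cells met the rule for S with exactly 1 UMI of E, and their endothelial list was at 989 CPM.

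**Figure D2:**
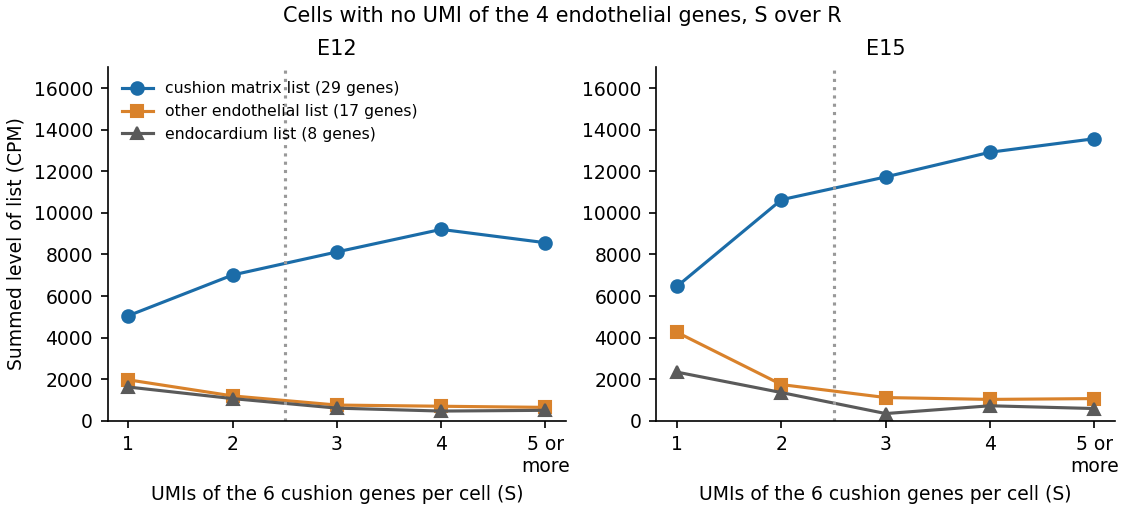
Summed level (y axis, CPM) of 3 gene lists in cells with no UMI of the 4 endothelial genes and S over R, by the number of UMIs of the 6 cushion genes in a cell (x axis), for E12 and E15. The dotted line marks the threshold of the rule, and the cushion matrix list is higher to its right at both stages, from 7013 to 8121 CPM across the line at E12.

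Against endocardial comparison cells of the same library, the cushion mesenchyme had higher sums of the fibroblast, matrix, cartilage and Wnt lists and lower sums of the endocardium list and the list of other endothelial genes. Among 2633 genes outside the rule with at least 50 CPM as the mean of both groups, 142 were at least 2-fold higher in cushion mesenchyme at E12 (5.39%) and 159 at least 2-fold lower (6.04%). At E15, 222 of 2665 genes were higher (8.33%) and 253 lower (9.49%). The count of higher genes at E15 was 388 after thinning to 1000 UMIs, with 302 lower, and 511 with R of 0, with 312 lower. The median log2 ratio over all these genes was 0.06 at E12 and 0.07 at E15. Genes below were ordered by the bound of the ratio nearest to 1. Since the groups were chosen on S and E, genes that go with either were bound to differ, and the ratios describe the cells that were chosen. A gene far below 50 CPM in 1 group passes the filter only if it is high in the other, so its direction was fixed in advance.

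Meox1, a homeobox factor of mesoderm, led at E12. It was at 208 CPM in cushion mesenchyme and 21.1 CPM in endocardial comparison cells, a ratio of 9.85 (95% interval 6.95 to 14.3), and 25.3% of the selected cells held a UMI. At E15 it was at 113 and 14.0 CPM (8.06-fold, 4.40 to 14.5). Cthrc1, a secreted protein of matrix remodelling, was at 403 and 51.1 CPM at E12 (7.88-fold, 6.28 to 10.0) and 404 and 30.8 CPM at E15 (13.1-fold, 9.33 to 18.5). Car3, a cytosolic carbonic anhydrase, was at 150 and 18.2 CPM at E12 and 135 and 2.27 CPM at E15, which was the highest ratio there (59.5-fold, 22.4 to 199). It was found in 13.2% of the selected cells at E12 and 11.2% at E15. Col9a3, a chain of the cartilage collagen IX, was at 122 and 15.9 CPM at E12 (7.68-fold) and 20.1-fold at E15 (10.4 to 39.9). Lum, which encodes the collagen-binding proteoglycan lumican, was 5.81-fold higher at E12 (4.853 to 7.002) and 15.5-fold at E15 (12.8 to 18.8), with a UMI in 70.7% of the E15 cells. Htra1, a secreted serine protease, and Prss35, a protein like one, were among the 10 leading genes at both stages too. Thbs1 (6.50-fold), Clmp (7.36-fold) and Ncam1 (6.06-fold) completed the E12 list, and Dpt (23.8-fold), Lmcd1 (22.3-fold), Tubb3 (23.8-fold) and Kcnmb4 (19.8-fold) the E15 list. On the GRCm38 build Meox1 lies on the minus strand of chr11:101877510-101894374, Cthrc1 on the plus strand of chr15:39076932-39087121, Car3 on the plus strand of chr3:14863512-14872523 and Col9a3 on the plus strand of chr2:180597790-180622189.

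Among the leading lower genes were several of endocardium and vessels. Emcn, which encodes the endothelial sialomucin endomucin, was at 18.7 CPM in cushion mesenchyme and 392 CPM in endocardial comparison cells at E12 (ratio 0.0478, 0.0310 to 0.0706), and at 27.0 and 567 CPM at E15 (0.0476, 0.0154 to 0.111). Plvap, of endothelial diaphragms, was at 26.7 and 394 CPM at E12 (0.0678). Ednrb, an endothelin receptor, was at 18.0 and 369 CPM at E12 (0.0488), and Tmem100, a target of BMP signalling in endothelium, at 5.77 and 133 CPM (0.0432). Cdkn1c, a cell cycle inhibitor, was at 311 and 3296 CPM at E12 (0.0944, 0.0854 to 0.104) and 221 and 2373 CPM at E15 (0.0932). Lgals9, a galectin, was at 4.32 and 108 CPM at E12 and had 0 UMIs in the E15 cells against 191 CPM. With 3 UMIs in place of 0, the E15 ratio was 0.0848, and the upper bound of its interval was 0.105. Prr15 also had 0 UMIs at E15, against 164 CPM. The other leading lower genes were Ifi205, Mnda, Lgals9, Ecscr, Bst2 and Ctla2a at E12, and Hmcn1, Plvap, Fabp5, Bst2, Ecscr and Plagl1 at E15.

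**Figure D3:**
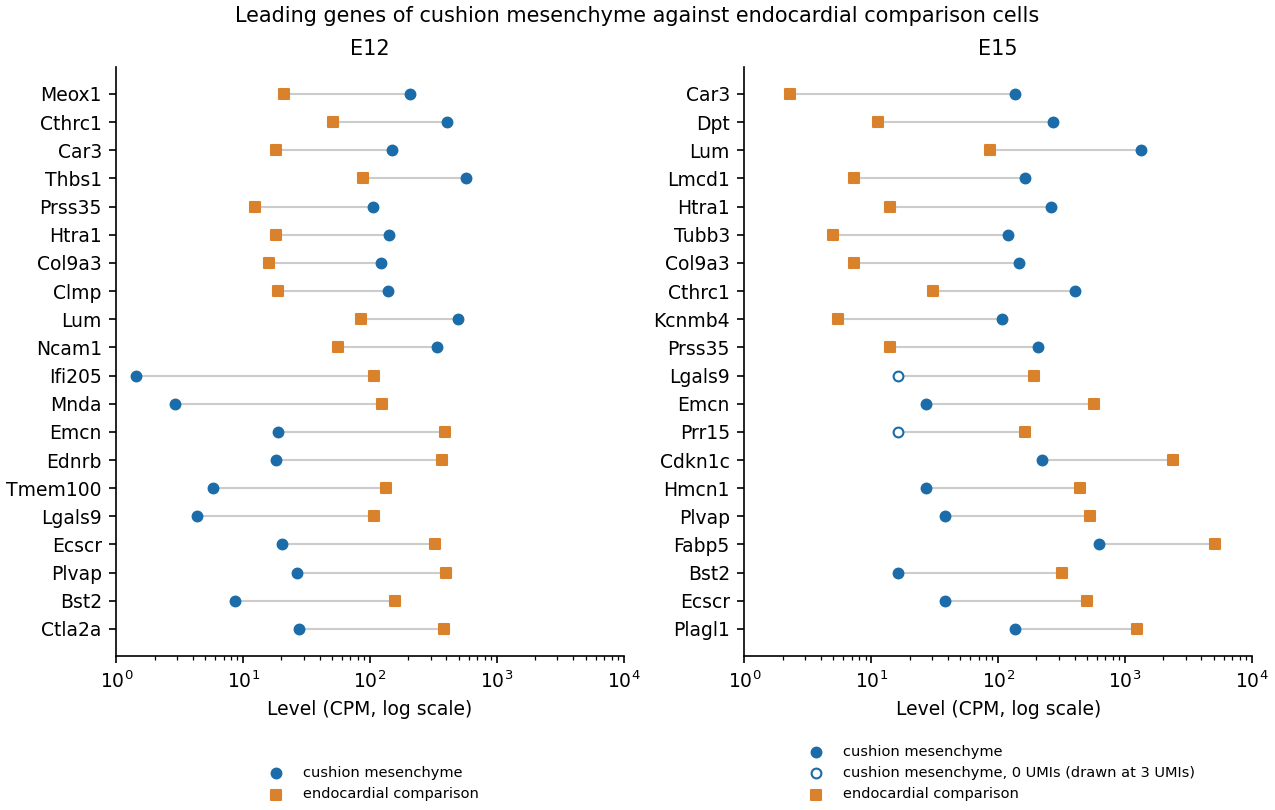
Level (x axis, CPM, log scale) of the 10 leading higher and 10 leading lower genes (y axis) in cushion mesenchyme (circles) and endocardial comparison cells (squares) at E12 and E15. Open circles stand for genes with 0 UMIs, drawn at 3 UMIs, and Car3 at E15 shows the widest gap upwards, 135 against 2.27 CPM.

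Matrix genes had a higher sum in cushion mesenchyme than in endocardial comparison cells. The 29 genes summed to 8586 CPM against 4454 CPM at E12 (1.93-fold, 1.87 to 1.98) and to 13013 against 5633 CPM at E15 (2.31-fold, 2.21 to 2.41). In the E12 barcodes of at most 50 UMIs, which are mostly empty droplets, the list was at 8229 CPM, close to the level in the selected cells, and the part of free RNA was not tested. The list's median log2 ratio was 1.94 at E12 and 2.16 at E15. Of the 19 genes past the filter at E12, 11 were at least 2-fold higher and 0 at least 2-fold lower. At E15 15 of 21 were higher and 1 was lower. Over all genes compared, 5.39% were higher and 6.04% lower at E12, and 8.33% and 9.49% at E15. Postn, whose product periostin cross-links valve collagen, was at 704 and 155 CPM at E12 (4.54-fold, 3.96 to 5.22) and 1359 and 241 CPM at E15 (5.65-fold, 4.84 to 6.57). The fibrillar collagens Col3a1 and Col1a2 were 2.80-fold and 3.85-fold higher at E12. Fbln1 and Fbln2, which encode fibulins, were 5.31-fold and 5.52-fold higher at E12, and Fbln2 was 1.98-fold higher at E15 (1.43 to 2.68). Has2, the enzyme that makes the hyaluronan of the cushions, was at 44.7 and 10.6 CPM at E12 (4.23-fold, 2.47 to 7.59) but did not reach the filter. Fn1, the gene of fibronectin, went the other way, at 685 and 1251 CPM at E12 (0.548, 0.507 to 0.592) and 469 and 1158 CPM at E15 (0.405, 0.323 to 0.502). Sparc, a collagen-binding protein, was 1.67-fold higher at E12 (1.53 to 1.82) and at 1138 and 1148 CPM at E15 (0.991, 0.857 to 1.14).

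Cartilage genes showed a larger ratio at a low level. Of 14 genes in this list, 12 are in the files, and they summed to 476 CPM against 94.6 CPM at E12 (5.03-fold, 4.23 to 6.01) and 507 against 59.8 CPM at E15 (8.47-fold, 6.43 to 11.1). In the E12 barcodes of at most 50 UMIs they summed to 300 CPM, and the part of free RNA was not tested. Col2a1, the main cartilage collagen, was at 41.8 and 2.94 CPM at E12 (14.2-fold, 5.76 to 45.5) and 43.1 and 2.27 CPM at E15 (19.0-fold, 5.49 to 74.0). Of the 12 genes 2 passed the filter at E12 and 1 at E15, all past 2-fold upwards, and Col2a1 was not among them. Col9a3, at 15.9 and 7.25 CPM in endocardial comparison cells at E12 and E15, passed this mean filter only through cushion mesenchyme. Its direction was thus fixed by the filter. The share past 2-fold upwards over all genes compared was 5.39% at E12 and 8.33% at E15. Sox5 and Sox6, the partners of SOX9 in cartilage, stayed under the filter at E12. Their ratios there were 3.74 (2.28 to 6.35) and 4.62 (2.47 to 9.29). Matn4, a matrilin also under the filter, had a ratio of 9.29 at E12 (4.21 to 24.2). Acan, Matn1, Comp and Lect1 of this list had 0 UMIs in the selected cells of both stages. The 1387580 UMIs of the E12 cells put 3 UMIs, the limit that a count of 0 allows, at 2.16 CPM.

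Of 25 transcription factors of cushion and other mesenchyme, Msx1, Prrx1 and Meox1 were at least 2-fold higher at both stages among the 12 that passed the filter. Msx1 and Meox1 were at 22.9 and 21.1 CPM in endocardial comparison cells at E12, so they passed only through cushion mesenchyme. At least 2-fold lower were 1 at E12 and 2 at E15. Over all genes compared, 5.39% were higher and 6.04% lower at E12, and 8.33% and 9.49% at E15. The 1 lower gene at E12 is thus near the background share. Msx1, a homeobox factor of the cushions, was at 105 and 22.9 CPM at E12 (4.59-fold, 3.21 to 6.72) and 156 and 13.6 CPM at E15 (11.5-fold, 6.66 to 19.8). Prrx1 was 6.50-fold higher at E12 (4.48 to 9.67). Foxc1 was lower at both stages, with ratios of 0.309 at E12 and 0.144 at E15, and Foxp1 was lower at E15 (0.356, 0.209 to 0.567). Snai1 and Snai2, repressors of cell junction genes in the epithelial-to-mesenchymal transition, stayed under the filter at E12 with 38.2 and 77.8 CPM in cushion mesenchyme, and their ratios were 4.64 (2.54 to 9.06) and 5.10 (3.30 to 8.15). Zeb1 and Zeb2, 2 further factors of that transition, had ratios at E12 of 1.17 (0.886 to 1.55) and 1.14 (0.885 to 1.46), with intervals that include 1. Gata4, a cardiac factor also used in endocardium, was 1.89-fold higher at E12 (1.50 to 2.39). Tbx2, Tbx3, Msx2, Twist2 and Scx were all below 50 CPM in cushion mesenchyme at E12. The list's median log2 ratio, with genes under the filter included, was 1.10 at E12 and 1.78 at E15. Its summed CPM was 1.45-fold higher at E12 (1.37 to 1.53) and 1.19-fold at E15 (1.06 to 1.34). Against mural and fibroblast-like cells the sums were at ratios of 1.20 at E12 (1.13 to 1.27) and 1.12 at E15 (0.982 to 1.27), with median log2 ratios of 0.22 and 0.21.

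Among 24 BMP and TGF-beta genes some were higher and some lower. Tgfb2, the TGF-beta ligand of cushions, was 3.32-fold higher at E12 (2.54 to 4.39), and Bmp2 was at 54.8 and 7.05 CPM (7.77-fold, 4.20 to 15.7), under the filter. Tgfb1, another ligand, was lower at E12 (0.464) and at E15 (0.405). The receptors Tgfbr2 and Tgfbr3 had ratios of 0.291 (0.184 to 0.445) and 0.0854 (0.0418 to 0.157) at E12. The ratio of the endothelial co-receptor Eng was 0.262 there (0.218 to 0.314). Bmpr1a and Bmpr2 had ratios of 1.24 (0.940 to 1.63) and 1.01 (0.784 to 1.31) at E12. Bambi, a decoy receptor that BMP signals induce, was 3.43-fold higher at E12 (2.78 to 4.24) and 5.03-fold at E15 (3.57 to 7.01). The targets Id1, Id2 and Id3 were 1.63-fold, 1.50-fold and 1.27-fold higher at E12. Of the 13 list genes past the filter, 2 were higher and 3 lower by 2-fold at E12, and 1 and 3 at E15. The 3 lower genes at E12 do not cover Tgfb1, Tgfbr2, Tgfbr3 and Eng, so not all of these passed the filter. Over all genes compared, 5.39% were higher and 6.04% lower at E12, and 8.33% and 9.49% at E15, so the 1 higher gene at E15 is near the background share. The list's median log2 ratio was 0.70 at E12 and 0.45 at E15.

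Wnt genes were higher as a list than in endocardial comparison cells, at 796 against 277 CPM at E12 (2.87-fold, 2.57 to 3.20) and 679 against 211 CPM at E15 (3.22-fold, 2.62 to 3.93). In the E12 barcodes of at most 50 UMIs the list was at 507 CPM, and the part of free RNA was not tested. Against mural and fibroblast-like cells the list was at 796 and 877 CPM at E12 (0.908, 0.831 to 0.991) and 679 and 662 CPM at E15 (1.03, 0.834 to 1.26). Lef1, a nuclear partner of beta-catenin, was at 99.5 and 19.4 CPM at E12 (5.13-fold, 3.49 to 7.75). The receptors Fzd1 and Fzd2 were 2.77-fold and 5.84-fold higher at E12, and the secreted antagonists Sfrp1 and Dkk3 3.99-fold and 5.99-fold. These 5 were the list genes past 2-fold among 6 past the filter at E12. Lef1, at 19.4 CPM in endocardial comparison cells, passed only through its level in cushion mesenchyme. Over the list, with genes under the filter included, the median log2 ratio was 1.77. At E15 Dkk3 was the 1 gene of 2 past the filter that was 2-fold higher (10.8-fold, 5.48 to 21.0). Over all genes compared, 5.39% were higher at E12 and 8.33% at E15. Axin2, a direct target of the pathway, was low, at 19.5 and 4.11 CPM at E12 (4.73-fold, 2.01 to 12.9). The list of 21 growth factor, Notch and guidance genes summed to 814 and 818 CPM at E12 (0.994, 0.918 to 1.08). In it Pdgfra, a receptor of mesenchyme, was 5.24-fold higher (3.57 to 7.91) and Notch2 2.27-fold (1.81 to 2.86), while Nrp1, a receptor of endothelium and nerve, was lower (0.399, 0.333 to 0.477). Of the adhesion genes Ncam1, Cdh2 and Lgals1 were higher at E12, and Lgals1, which encodes galectin-1, was at 4509 and 1031 CPM (4.37-fold, 4.15 to 4.61). At E15 Lgals1 was at 5754 and 795 CPM (7.24-fold, 6.70 to 7.82).

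**Figure D4:**
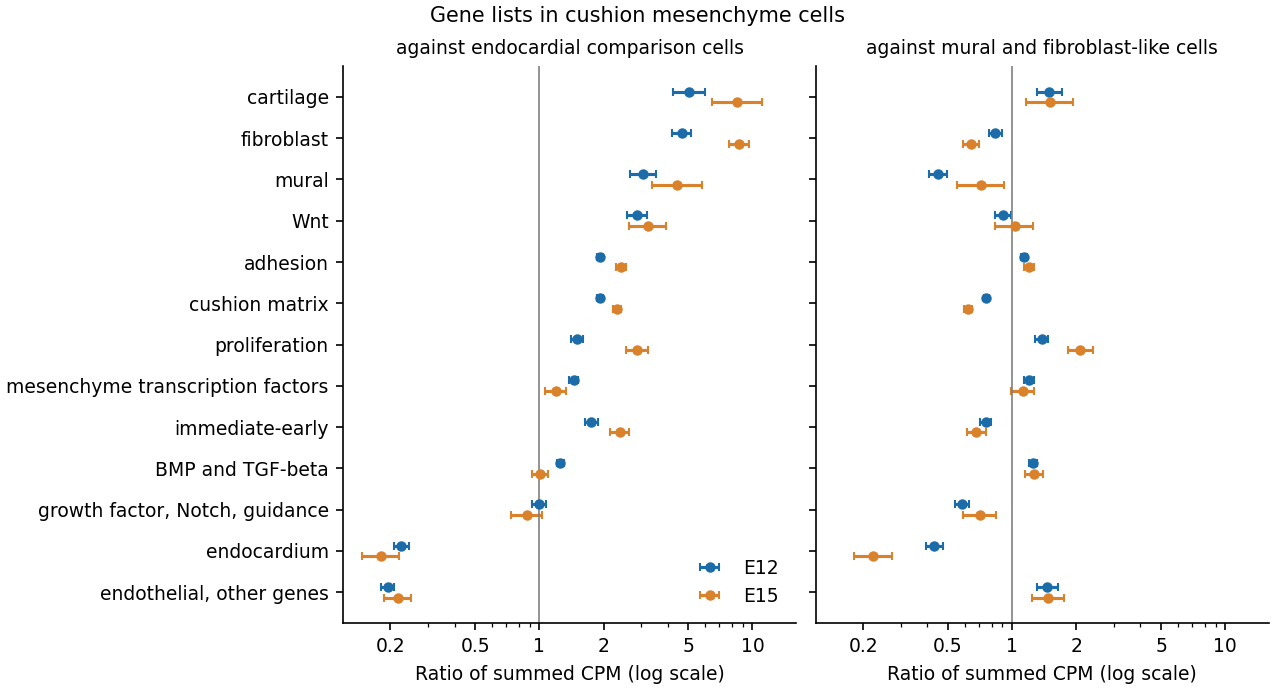
Ratio of the summed CPM of each gene list (x axis, log scale) in cushion mesenchyme over endocardial comparison cells (left) and over mural and fibroblast-like cells (right), at E12 and E15. Points are ratios and bars 95% intervals of counting error. The cartilage list stands at 5.03 at E12 on the left and at 1.50 on the right.

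Endothelial genes outside the rule were low but present. The 17 genes summed to 671 CPM in cushion mesenchyme and 3463 CPM in endocardial comparison cells at E12 (0.194, 0.181 to 0.208), and to 1073 and 4965 CPM at E15 (0.216, 0.187 to 0.249). Of 12 past the filter, 10 were at least 2-fold lower at E12 and 11 at E15, and 0 were higher. Over all genes compared, 6.04% were lower and 5.39% higher at E12, and 9.49% and 8.33% at E15. The median log2 ratio was -2.87 at E12 and -2.39 at E15. Ramp2, a partner of the calcitonin receptor-like receptor, was the most abundant of them, at 298 CPM at E12 and 577 CPM at E15. Cd34 was at 96.6 and 117 CPM at E12 (0.826, 0.659 to 1.03), an interval that includes 1. In the selected E12 cells 319 of 796 held none of these 17 genes, 246 held 1 UMI, 123 held 2 and 108 held 3 or more. In barcodes of at most 50 UMIs at E12, which are mostly empty droplets, this list was at 3024 CPM. That exceeds the level in the selected cells, and the part of free RNA in their endothelial UMIs was not tested. The endocardium list was at 516 and 2297 CPM at E12 (0.225, 0.207 to 0.243), and Plagl1, an imprinted zinc finger gene, was its most abundant gene in cushion mesenchyme at 203 CPM. In the barcodes of at most 50 UMIs the endocardium list was at 1656 CPM.

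Markers of other cell types were checked the same way. The fibroblast list, whose 7 genes include Lum, Dcn and Col1a2 of the matrix list, was at 1240 and 267 CPM at E12 and 3230 and 374 CPM at E15. The mural list was at 516 and 168 CPM at E12, with Tagln at 404 CPM and Myh11 at 0. The epicardium list was at 90.1 and 43.5 CPM at E12, of which Tcf21 was 65.6 CPM. The cardiomyocyte list was at 345 and 280 CPM at E12 (Tnni1 at 213 CPM and Myh6 at 0), and the erythroid list at 298 and 479 CPM (Hbb-y at 164 CPM). The valve endothelium list was at 61.3 and 73.4 CPM at E12 (0.834, 0.626 to 1.11) and at 167 and 106 CPM at E15 (1.58-fold, 1.05 to 2.30). Other lists were low, with the lymphatic list at 26.7 and 61.7 CPM (Lyve1 at 0), the macrophage list at 36.8 and 17.0 CPM, the platelet list at 12.3 and 19.4 CPM and the neural crest and Schwann list at 6.49 and 4.70 CPM, all at E12. Sox10 and Foxd3 of the neural crest list had 0 UMIs in the E12 cells. In E12 barcodes of at most 50 UMIs, the fibroblast list was at 1449 CPM, the cardiomyocyte list at 541 CPM and the epicardium list at 105 CPM. Every list of this paragraph was higher there than in the selected cells, except the mural list (291 CPM) and the neural crest and Schwann list (3.23 CPM). The part of these cell types and of free RNA in the results was not tested.

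Proliferation genes had higher sums in cushion mesenchyme than in endocardial comparison cells. The 14 proliferation genes summed to 1562 CPM in cushion mesenchyme and 1044 CPM in endocardial comparison cells at E12 (1.50-fold, 1.41 to 1.59), and to 2011 and 700 CPM at E15 (2.87-fold, 2.56 to 3.22). The E12 barcodes of at most 50 UMIs held 1013 CPM of the list, and the part of free RNA in these UMIs was not tested. Of 9 genes past the filter 0 were 2-fold higher at E12 and 8 at E15. Over all genes compared, 5.39% were higher at E12 and 8.33% at E15, so the count of 0 at E12 is near the background share. Ube2c, which drives mitotic exit, was at 469 and 110 CPM at E15 (4.26-fold, 3.30 to 5.46). Cells with at least 2 UMIs of the list, each thinned to 1000 UMIs, made up 32.4% of the cushion mesenchyme at E12 (28.96% to 36.04%), 18.3% of the endocardial comparison cells (15.8% to 21.1%) and 23.1% of the mural and fibroblast-like cells (19.7% to 26.8%). At E15 the shares were 30.2% (21.3% to 40.4%), 13.8% (11.7% to 16.1%) and 16.4% (12.5% to 20.8%). Thinning left out 99, 281 and 174 cells at E12 and 20, 772 and 107 at E15. Without thinning the shares were 38.7%, 21.0% and 26.6% at E12 and 31.0%, 11.6% and 16.2% at E15. Immediate-early genes, which tissue digestion can induce, were at 1440 and 823 CPM at E12 and 2411 and 1010 CPM at E15. Fos was at 450 CPM in the E12 cells and 938 CPM in the E15 cells. The E12 barcodes of at most 50 UMIs held 1793 CPM of the immediate-early list, and the part of digestion or free RNA was not tested.

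Fewer genes were past 2-fold against mural and fibroblast-like cells. Both these cells and the cushion mesenchyme were chosen with no UMI of E, whereas endocardial comparison cells were required to hold one, so these counts do not rank the groups by likeness. At E12, 45 of 2560 genes were at least 2-fold higher in cushion mesenchyme (1.76%) and 69 at least 2-fold lower (2.7%). At E15, 124 of 2566 were higher (4.83%) and 116 lower (4.52%). Lef1 led at E12, at 99.5 and 13.1 CPM (7.57-fold, 4.36 to 14.2), followed by Postn (3.03-fold, 2.63 to 3.49) and Nkd1, a Wnt-induced inhibitor of the pathway (4.06-fold, 2.61 to 6.58). Nkd1 was also among the leading genes at E15 (4.68-fold, 2.66 to 8.38), as was Dbi, an acyl-CoA-binding protein, which was 2.81-fold higher at E12 (2.53 to 3.12) and 3.07-fold at E15 (2.66 to 3.55). Papss2, which makes the sulfate donor for proteoglycans, was at 172 and 50.7 CPM at E12 (3.399-fold, 2.52 to 4.66). Atp1b1, Limch1 and Col9a3 were the other E12 genes, at 3.77-fold, 3.75-fold and 3.51-fold. At E15 Tubb3 (8.23-fold), Msx1 (6.10-fold), Ruvbl2 (7.57-fold), Lmcd1 (5.61-fold), Bok (5.77-fold) and Car3 (5.61-fold) completed the list. Limch1 was 3.63-fold higher at E15 as well (2.03 to 6.53), while Atp1b1 was at 140 and 123 CPM there (1.14, 0.699 to 1.79). Lef1 lies on the plus strand of chr3:131110471-131224356.

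Among genes lower than in mural and fibroblast-like cells were genes of elastic matrix, a chemokine and globins. Eln, the gene of elastin, was at 299 and 1893 CPM at E12 (0.158, 0.142 to 0.176) and 286 and 2210 CPM at E15 (0.129, 0.0964 to 0.170). Cxcl12, a chemokine, was at 88.6 and 1099 CPM at E12 (0.0807) and had 0 UMIs at E15 against 393 CPM. With 3 UMIs in place of 0, its E15 ratio was 0.0412, and the upper bound of its interval was 0.0511. Fbln5, which assembles elastic fibres, was at ratios of 0.114 at E12 and 0.134 at E15, and Dlk1, a Notch-related inhibitor of differentiation, at 0.147 and 0.0623. Of the 18 Dlk1 UMIs in E15 cushion mesenchyme, 38.9% lay in 1 cell. Jag1, a Notch ligand, was at 29.5 and 239 CPM at E12 (0.123, 0.0865 to 0.172). Ogn, Tshz2, Gm12840 and Tmem158 were the other lower genes at E15. The globin genes Hba-a2, Hba-a1 and Hbb-bt were among the leading 8 at E12, and the erythroid list was at 2374 CPM in the mural and fibroblast-like cells of that library, against 298 CPM in cushion mesenchyme and 5678 CPM in barcodes of at most 50 UMIs. With cells thinned to 1000 UMIs, Hba-a1 was found in 3.89% of the mural and fibroblast-like cells and 5.60% of the cushion mesenchyme, and Hba-a2 in 3.004% and 1.72%, so few cells carried these UMIs. The matrix list was lower in cushion mesenchyme than in these cells, at 8586 against 11375 CPM at E12 (0.755, 0.736 to 0.774) and 13013 against 21040 CPM at E15 (0.618, 0.592 to 0.646), whereas cartilage genes were 1.50-fold higher at both stages. The other endothelial list was higher as well in cushion mesenchyme, 671 against 459 CPM at E12 (1.46-fold, 1.31 to 1.63) and 1073 against 729 CPM at E15 (1.47-fold, 1.24 to 1.74). Of the matrix genes past the filter 2 of 20 were 2-fold higher and 4 lower at E12, and 0 of 23 higher and 10 lower at E15. The shares over all genes compared were 1.76% higher and 2.7% lower at E12, and 4.83% and 4.52% at E15. The list's median log2 ratios were -0.05 and -0.42 beside 0.08 and 0.13 over all genes compared. The list medians include genes under the filter and the others do not, so they cover unlike sets. R includes the matrix genes Col1a1 and Mfap4, so matrix genes that go with them were bound to be high in this group.

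Between the stages, the matrix and fibroblast lists were higher in E15 cushion mesenchyme, and also in both other groups. Of 2649 genes 96 were at least 2-fold higher at E15 (3.62%) and 67 at least 2-fold lower (2.53%). Dcn, which encodes the small proteoglycan decorin (plus strand of chr10:97479609-97518143), was at 82.2 CPM at E12 and 706 CPM at E15 (8.60-fold, 6.64 to 11.2). Dpt, which encodes dermatopontin, was at 29.5 and 270 CPM (9.13-fold, 5.92 to 14.1). Clu (8.09-fold), Junb (5.33-fold), Cdc42ep3 (4.86-fold), S100a6 (4.49-fold), Mgp (3.49-fold) and Lum (2.68-fold) followed. The matrix list was at 8586 CPM at E12 and 13013 CPM at E15 (1.52-fold, 1.45 to 1.58), and 5 of its 21 genes past the filter were at least 2-fold higher and 0 lower. The list's median log2 ratio, with genes under the filter included, was 0.48, beside 0.03 over all genes past the filter. In mural and fibroblast-like cells the matrix list was 1.85-fold higher at E15 (1.80 to 1.90), and in endocardial comparison cells 1.26-fold (1.23 to 1.30). The fibroblast list was 2.61-fold higher in cushion mesenchyme (2.37 to 2.86), 3.38-fold in mural and fibroblast-like cells (3.18 to 3.59) and 1.40-fold in endocardial comparison cells (1.25 to 1.58). Markers of endothelium were higher at E15 in cushion mesenchyme as well, 1.60-fold for the other endothelial list (1.37 to 1.87) and 2.73-fold for the valve endothelium list (1.75 to 4.16). The other endothelial list was also 1.59-fold higher in mural and fibroblast-like cells (1.40 to 1.81) and 1.43-fold in endocardial comparison cells (1.39 to 1.48), and the valve endothelium list 1.52-fold (1.14 to 2.02) and 1.44-fold (1.16 to 1.81). The part of these markers in the result was not tested.

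Several of these genes also differed between the stages in the other cells of these libraries. Dcn was 4.65-fold higher at E15 in endocardial comparison cells (3.22 to 6.90) and 14.7-fold higher in mural and fibroblast-like cells (11.8 to 18.4). Dpt was 2.76-fold (1.16 to 7.54) and 55.0-fold (23.1 to 172) higher there. Mgp, an inhibitor of calcification, was 4.41-fold higher in endocardial comparison cells (4.01 to 4.85), a ratio above that of cushion mesenchyme. Lum was at 85.2 and 85.6 CPM in endocardial comparison cells (1.01, 0.806 to 1.26) and was 2.81-fold higher in mural and fibroblast-like cells. S100a6, a calcium-binding protein, was 4.49-fold higher in cushion mesenchyme (2.88 to 6.90), while its ratios were 0.863 (0.626 to 1.19) and 1.45 (1.12 to 1.88) in the other groups. Few cells carried it: 23 of its 60 E12 UMIs lay in 11 cells that formed the fourth cluster below, and 1 cell held 22.2% of its E15 UMIs. In the other E12 cells it was at 27.0 CPM. Clu, the gene of the chaperone clusterin, was 8.09-fold higher in cushion mesenchyme (5.043 to 13.01), 1.60-fold in endocardial comparison cells (1.00 to 2.61) and 4.20-fold in mural and fibroblast-like cells (2.57 to 7.06).

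Hmga2, a chromatin protein of growing embryonic tissue, was lower at E15 in every group, at ratios of 0.144 in cushion mesenchyme, 0.132 in endocardial comparison cells and 0.163 in mural and fibroblast-like cells. Cd24a, a surface glycoprotein, was at 0.302, 0.381 and 0.322. The heat shock genes Hspa1b (0.0554, 0.00139 to 0.314), Hspa1a (0.286, 0.141 to 0.519) and Dnajb1 (0.196, 0.0629 to 0.465) were lower in E15 cushion mesenchyme, with ratios of 0.672, 0.743 and 0.673 in endocardial comparison cells and 0.488, 0.634 and 0.702 in mural and fibroblast-like cells. Embryonic globin Hbb-y was at 164 CPM at E12 and 27.0 CPM at E15, and Tab2 and Sms had ratios of 0.215 and 0.237. Counts in E15 cushion mesenchyme were low, with 1 UMI of Hspa1b and 5 of Dnajb1. Of the 11 Hspa1a UMIs 54.5% lay in 1 cell, and of the 5 Hbb-y UMIs 80% did. Meox1, the leading gene at E12, was at 208 and 113 CPM (0.544, 0.331 to 0.847). The part of free RNA, digestion and stage in these differences cannot be told apart with 1 library per stage.

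**Figure D5:**
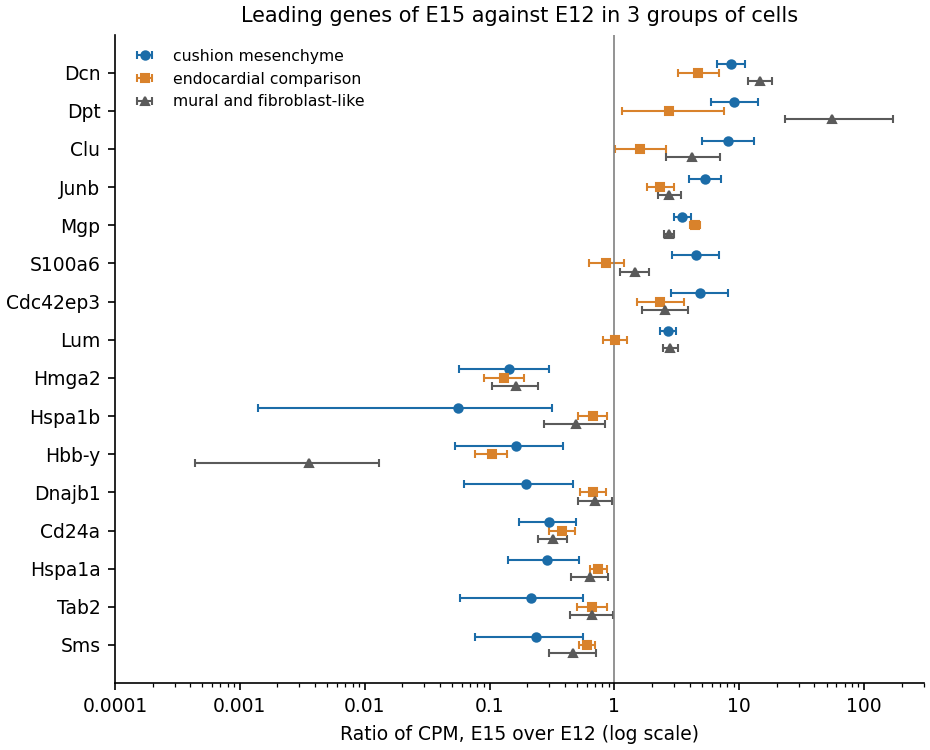
Ratio of CPM at E15 over E12 (x axis, log scale) of the 8 leading higher and 8 leading lower genes of cushion mesenchyme (y axis) in 3 groups of cells. Points are ratios and bars 95% intervals of counting error. Dcn is above 1 in each group and Hmga2 below 1 in each group, while Lum is at 1.01 in endocardial comparison cells.

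At P2 the genes of S were found in barcodes with endothelial transcripts. A sum S of at least 3 that exceeded R occurred in 220 barcodes, all with at least 1 UMI of E and with a median of 13. In these barcodes, with a median depth of 5843 UMIs, Vcan was at 615 CPM and Hapln1 at 277 CPM, but Sox9 was at 5.82 CPM, Twist1 at 14.5 CPM and Prrx2 at 9.46 CPM. These are genes of the rule, and their levels are a description of the barcodes it picked. A UMI of Npr3 or Tmem108 was found in 169 of the 220. Their valve endothelium list was at 1137 CPM, against 319 CPM in all P2 endocardial comparison cells, and their other endothelial list at 5513 CPM. Only 11 P2 barcodes held no UMI of E, and 2 of these reached S of 3, neither with more S than R. No ratio between stages was formed for P2.

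The E12 cells fell into clusters that included 1 led by cell division genes. Clustering of the 796 cells on 1000 variable genes gave 4 clusters at a resolution of 0.4, which was chosen after the clusters were seen, while 0.6 gave 5. The leading genes of a cluster define it and are no result. The first cluster held 460 cells (57.8%, median 1305 UMIs) led by Ccnd2, Igfbp4, Col9a3, Smim14, Mxd4 and Ucp2, with 428 CPM of the proliferation list. The second held 298 cells (37.4%, median 2073 UMIs) led by Ube2c, Prc1, Cks2, Top2a, Cdc20 and Cenpf, with 2709 CPM of that list. Both held the matrix list at similar sums, 8519 and 8862 CPM, and Sox9 at 594 and 483 CPM. The third, of 27 cells, was led by Pi16, Stmn2, Podxl, Wnt4, Aqp1 and Arl4d. Its other endothelial list was at 2404 CPM, against 659 and 578 CPM in the larger clusters, its valve endothelium list at 448 CPM and its Twist1 at 141 CPM. The fourth, of 11 cells, was led by Apela, Upk3b, Rspo1, Gucy1a3, Kcne1l and Wt1, and held 1414 CPM of the epicardium list, 1204 CPM of Sox9 and 105 CPM of Vcan. The label of cushion mesenchyme thus went against the leading genes of these 38 cells, which stay unnamed here. Without them the matrix ratio at E12 was 1.95 and the ratio of the other endothelial list 0.178.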

How the data were processed

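The authors mapped 10x Genomics v2 3' libraries with Cell Ranger 2.2 to mm10 and deposited raw UMI counts for 27998 genes in each barcode. The E12 file held all barcodes, and those with at least 452 UMIs were kept, a cutoff rebuilt here by the Cell Ranger rule (quantile 0.99, share 0.1) with 3000 expected cells, a number assumed here and below the cell recovery that the study's methods say was targeted. The other files were used whole. UMIs were summed over the cells of a group and expressed as CPM. Median log2 ratios of lists took in list genes under the filter, while those over all genes compared did not. Ratios of CPM have exact conditional binomial intervals, with 3 UMIs in place of 0. They were tested only on counts simulated under the model the intervals assume, without variation between cells. That test cannot show how the intervals hold for these cells. Genes named are those of the lists and those with the bound nearest 1 farthest from it: 10 each way against endocardial comparison cells, 8 each way otherwise and 6 per cluster. Members and lists were chosen with earlier results of these data known. Clusters used scanpy 1.11.5 (15 components, 15 neighbours). Doublet scores came from Scrublet in scanpy, at 0.8% doublets per 1000 cells. Gene positions are from GENCODE on GRCm38.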

Additional observations from a re-analysis of the deposited data

Results flagged for a closer look

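The E12 file also held 158274 barcodes below the cutoff of 452 UMIs, and no cells were selected from them. The 155236 of at most 50 UMIs served only for the levels in mostly empty droplets. Of all barcodes below the cutoff, 20 met the rule, with a median of 316 UMIs and a range of 129 to 435. They are 0.0126% of the barcodes below the cutoff, and they lay outside the barcodes from which cells were selected.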

How the results depend on the processing

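Shares of cushion mesenchyme depended on the rule. At E12 (13.9%) the share was 11.2% with S of at least 4, 6.91% with S without Tbx20 and Vcan, 5.57% with 0 UMIs of the other endothelial list, 5.06% after thinning to 500 UMIs, 17.2% among barcodes of at least 1000 UMIs and 4.38% with R of 0. At E15 (1.91%) it was 1.42%, 0.643%, 0.429%, 0.597% and, with R of 0, 0.445%. The matrix ratio at E12 (1.93) was 1.85 without Tbx20 and Vcan, 2.16 with the study's cell limits and doublet score, 2.16 after thinning to 1000 UMIs, 2.08 with every cell weighted equally, 2.04 against comparison cells with at least 2 UMIs of each sum and 1.65 with R of 0. At E15 (2.31) it was 2.16 without Tbx20 and Vcan, 2.50 with 0 endothelial UMIs, 2.69 with the cell limits, 2.67 after thinning, 2.56 with equal weights and 1.89 with R of 0. The ratio of the other endothelial list at E12 (0.194) was 0.173 with the cell limits, 0.173 after thinning, 0.178 without the 2 small clusters, 0.175 against the stricter comparison cells and 0.271 with R of 0, and at E15 (0.216) it was 0.181 with the cell limits and 0.249 with R of 0. It is fixed at 0, and has no value, where cells with these genes are left out. Without the filter on low values, 2478 genes were 2-fold higher and 2148 lower at E12, and 5849 and 1379 at E15, since genes of few UMIs then enter. At E15, 420 genes were higher without Tbx20 and Vcan, 526 with 0 endothelial UMIs, 388 after thinning and 511 with R of 0, against 222. The cause of the other changes was not tested. The matrix and other endothelial ratios against endocardial comparison cells did not cross 1 under these settings, and the other lists and comparisons were not rerun. R of 0, thinning to 500 UMIs and leaving out the small clusters were chosen after seeing the data. No paired analysis was possible because each stage has 1 library. The E15 cells hold 185436 UMIs, which limits ratios of low genes there.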
